A study of Homo sapiens with 30 samples.

Results

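The mRNAs of 7 SR splicing factors (SRSF1, SRSF2, SRSF3, SRSF5, SRSF6, SRSF7 and SRSF10) and 3 CLK kinases (CLK1, CLK2 and CLK4) were followed in HEK293, a wild-type human cell line of embryonic kidney origin. These 10 genes were chosen by symbol, matched through their Ensembl identifiers, from the 58278 genes of the count tables. All 10 were found, and all 10 were among the 22321 genes that passed the filter on low counts. The cells had been transfected by lipofection with a plasmid for a mistranslation reporter, an EGFP-mCherry fusion with a missense change in EGFP, with or without its cognate missense-correcting tRNA (mc-tRNA) on that plasmid. Groups of 3 independent replicates carried EGFP(R65) with Ser-tRNA_Arg(CCG), EGFP(R96Q) with Arg-tRNA_Gln(CUG), EGFP(R96C) with Arg-tRNA_Cys(GCA), EGFP(R96H) with Arg-tRNA_His(GUG) or EGFP(R96W) with Arg-tRNA_Trp(CCA), and 5 further groups of 3 carried each reporter alone. Every group thus expressed a reporter and was sorted for mCherry at 48 h after transfection, so a comparison within a reporter shows the effect of adding the mc-tRNA, and untransfected cells were not analysed here.

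SR proteins bind exonic sequences through RNA recognition motifs and recruit the splicing machinery through a domain rich in arginine and serine. CLK kinases phosphorylate the serines of that domain in the nucleus, which releases SR proteins from nuclear speckles, while SRPK kinases phosphorylate it in the cytoplasm. The mRNAs of both families are known for autoregulation through their own splicing: SR genes hold exons whose inclusion sends the transcript to nonsense-mediated decay, and CLK1 and CLK4 keep retained introns that are spliced out when CLK activity falls or after heat stress. SRSF10 is known as the SR protein that heat stress dephosphorylates into a splicing repressor.

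The libraries held 39017548 to 55446962 gene counts. In log2 CPM (counts scaled to a common library size with TMM factors), the first principal component took 41.9% of the variance and set the 6 EGFP(R65) libraries apart from the 24 others, and the ERCC spike-in counts were 0 in those 6 and 10 to 106 in the 24. Of the 4 HEK293 markers, NEFM, NEFL and INA were at 14.5 to 99.7 CPM in every library, and PAX2 was lower, at 1.23 to 5.14 CPM. Of the 10 markers of other cell types, the T cell and keratinocyte markers CD3E, KRT14 and KRT5 were at or below 3 counts in all 30 libraries. PTPRC was so in 29, LYZ in 22 and PECAM1 in 10. The 10 markers summed to 35.4 to 37.9 CPM (here by library totals) with Ser-tRNA_Arg(CCG) and 27 to 29.8 with EGFP(R65) alone, and to 37.1 to 39 with Arg-tRNA_Cys(GCA) and 22.8 to 25 with EGFP(R96C) alone; the other 6 groups lay between 19.4 and 29.4. The largest change on the log2 scale among the 5 of these markers that were tested was in the liver gene ALB. It was at 9.41 ± 0.812 CPM with Ser-tRNA_Arg(CCG) and 0.535 ± 0.132 CPM with EGFP(R65) alone (SD, n = 3 each). With Arg-tRNA_Cys(GCA), ALB was at 0.77 ± 0.164 CPM, against 0.15 ± 0.0763 CPM with EGFP(R96C) alone. COL1A1, the marker with the highest median level, changed there by 1.39 ± 0.09 (log2 ± SE), and 3 of the 5 were called higher and 1 lower. The 4 HEK293 markers (NEFM, NEFL, INA and PAX2), summed in the same way, were at 0.572 times their level in the reporter alone with Arg-tRNA_Cys(GCA), 0.751 times with Arg-tRNA_Trp(CCA), 0.8 times with Ser-tRNA_Arg(CCG), 0.963 times with Arg-tRNA_Gln(CUG) and 0.959 times with Arg-tRNA_His(GUG). The groups did not overlap in these comparisons except for Arg-tRNA_His(GUG). By the calls defined below, 2 of the 4 rose and 2 fell with Ser-tRNA_Arg(CCG). With Arg-tRNA_Cys(GCA), 1 rose and 2 fell (0 and 3 with library totals). INA was the rise there and was also among the rises with Ser-tRNA_Arg(CCG). The part of these marker changes in the results below was not tested.

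A gene is said to have risen or fallen where edgeR's quasi-likelihood test gave a Benjamini-Hochberg adjusted p under 0.05 over all genes tested. Changes are log2 fold changes ± SE, with the mc-tRNA over the reporter alone, from 3 libraries against 3. Shares of all genes are given at the adjusted p only. Counts at an unadjusted p under 0.05 therefore have no background beside them, and nothing is concluded from their size. With Arg-tRNA_Cys(GCA), 7 of the 10 mRNAs rose and 3 fell (3 and 5 when scaled by library totals), where 60.7% of all tested genes were called, 30.2% higher and 30.5% lower. The groups of all 10 did not overlap, as for 61.8% of all genes. With library totals, 3143 of all tested genes rose and 12401 fell with this mc-tRNA. Ser-tRNA_Arg(CCG) raised 3 and lowered 4, beside 57.3% of all genes, 26.6% higher and 30.7% lower, and the groups of 7 did not overlap, beside 66.3%. With Arg-tRNA_Trp(CCA), 2 rose and 1 fell (2 and 5 with library totals), beside 42.5%, 20.7% higher and 21.7% lower, and the groups of 7 did not overlap, beside 47.8%. With library totals, 3197 of all tested genes rose and 6976 fell with Arg-tRNA_Trp(CCA). Arg-tRNA_His(GUG) raised 3, by at most 1.19-fold, where 2.51% of all genes were called, 1.56% higher and 0.95% lower; it lowered 0, also with DESeq2, and 5 members had an unadjusted p under 0.05. Arg-tRNA_Gln(CUG) changed 0 of the 10, also with DESeq2, where 0.551% of all genes were called and 1 member had an unadjusted p under 0.05.

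**Figure D1:**
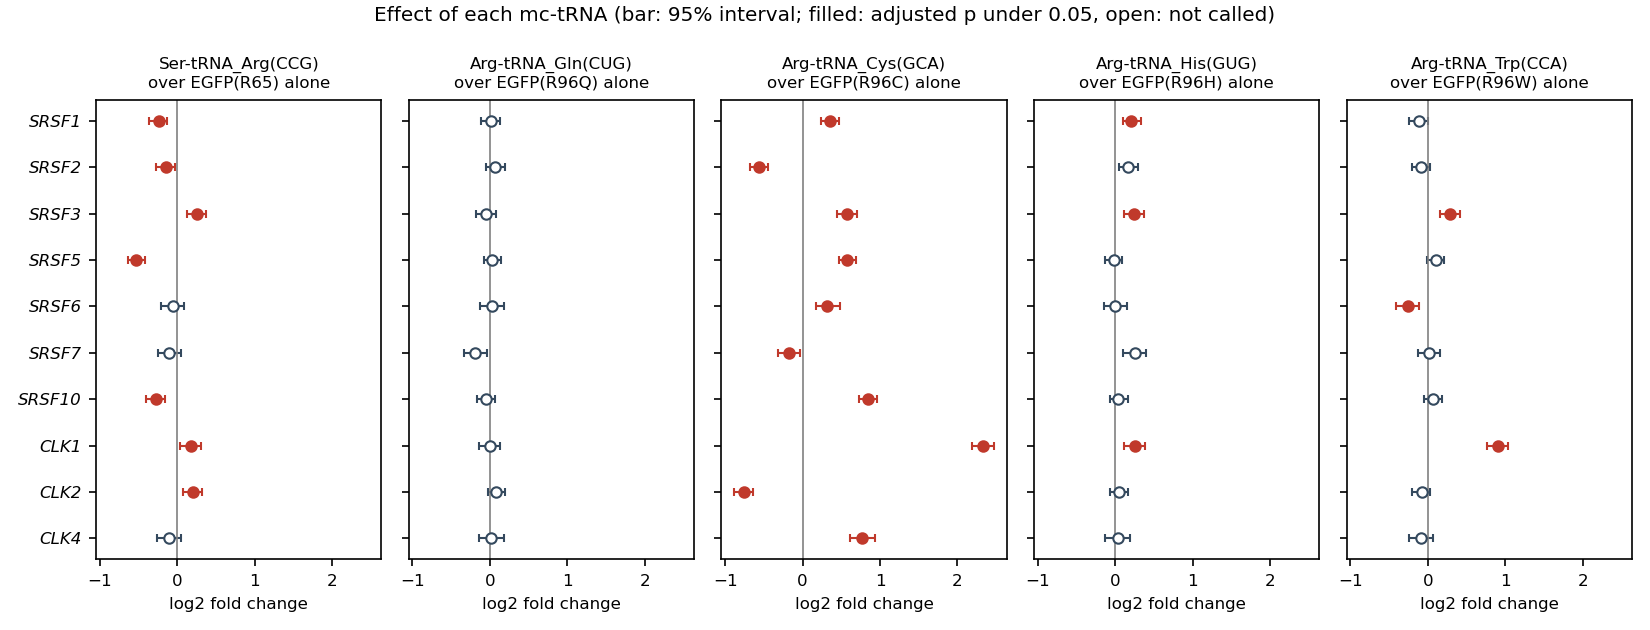
Log2 fold change (x axis) of each of the 10 mRNAs (rows) in the 5 comparisons (panels), with its 95% interval; TMM factors were used, and filled points have an adjusted p under 0.05. CLK1 with Arg-tRNA_Cys(GCA), at 2.33, lies furthest from 0, all 10 points of that panel are filled, and none of the Arg-tRNA_Gln(CUG) panel is.

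The members' median log2 change was 0.47 with Arg-tRNA_Cys(GCA), beside -0.04 over all tested genes. It was -0.10 for Ser-tRNA_Arg(CCG), 0.02 for Arg-tRNA_Gln(CUG), 0.11 for Arg-tRNA_His(GUG) and -0.03 for Arg-tRNA_Trp(CCA), beside -0.02, 0.00, 0.00 and -0.03 over all genes in that order. The summed level of the 3 CLK mRNAs was 553 ± 36.4 CPM with Arg-tRNA_Cys(GCA) and 224 ± 16 CPM with EGFP(R96C) alone (SD, n = 3 each), 2.47 times as high. The summed level of the 7 SR mRNAs in these groups was 3142 ± 109 and 2473 ± 51.5 CPM, a ratio of 1.27, which turned to 0.87 with library totals, where the CLK ratio was 1.69. These RNAs are from bulk cells, in which a changed level in every cell and a changed number of cells with a different level cannot be told apart.

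CLK1 was the member whose level changed most. CLK1 (ENSG00000013441, GRCh38 chromosome 2, 200853009 to 200864744, minus strand) had 439, 474 and 408 CPM with Arg-tRNA_Cys(GCA), against 84.2, 82.9 and 95.9 CPM with EGFP(R96C) alone. The groups stood far apart, on 13003 to 16803 counts against 3535 to 5714. Its log2 change of 2.33 ± 0.07 (5.02-fold, adjusted p = 1.42e-25) lay at the 97.3rd percentile of all tested genes. With Arg-tRNA_Trp(CCA), CLK1 had 220, 213 and 195 CPM, against 119, 115 and 103 CPM with EGFP(R96W) alone. The 2 groups again stood well apart, with a change of 0.90 ± 0.07 (1.86-fold, adjusted p = 3.21e-13) at the 93.4th percentile.

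The other mc-tRNAs moved CLK1 less. It had 290, 295 and 269 CPM with Ser-tRNA_Arg(CCG), against 250, 254 and 251 CPM with EGFP(R65) alone, and 76.5, 76.7 and 73.7 CPM with Arg-tRNA_His(GUG), against 61.3, 61.2 and 68.3 CPM with EGFP(R96H) alone. Neither pair of groups overlapped, and both rises were small, at 0.18 ± 0.07 (adjusted p = 0.0207) and 0.25 ± 0.07 (adjusted p = 0.0392). With Arg-tRNA_Gln(CUG) it had 88.1, 95.7 and 92 CPM, against 87.8, 91.1 and 97.7 CPM with EGFP(R96Q) alone, values that overlapped throughout. The 95% interval of that change was -0.14 to 0.13. The rise with Arg-tRNA_His(GUG) was not called without any 1 of the EGFP(R96H) replicates, without mc-tRNA replicate 1 or 2, or without the EGFP(R65) libraries (adjusted p = 0.0585 to 0.217). The rise with Ser-tRNA_Arg(CCG) was no longer called with library totals (adjusted p = 0.0535), or when EGFP(R65) replicate 1 or 3 or mc-tRNA replicate 1 or 2 was left out (0.0559 to 0.0916).

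CLK4 (ENSG00000113240, chromosome 5, 178602664 to 178630615, minus strand), the kinase closest to CLK1 in sequence, rose only with Arg-tRNA_Cys(GCA) among the 5 mc-tRNAs. Its levels there were 47.4, 55.8 and 46.5 CPM, against 30, 26.7 and 31.1 CPM with EGFP(R96C) alone. All 3 libraries with the mc-tRNA were above all 3 without it, and the change was 0.77 ± 0.08 (1.71-fold, adjusted p = 1.37e-10). In the Arg-tRNA_Trp(CCA) comparison, where CLK1 rose, CLK4 had 39.6, 40 and 38.9 CPM, against 43, 42.8 and 40.3 CPM with EGFP(R96W) alone. Those values lay slightly lower with the mc-tRNA, and the change of -0.09 ± 0.08 did not pass the test (adjusted p = 0.38). The difference of the CLK4 effects, Arg-tRNA_Cys(GCA) minus Arg-tRNA_Trp(CCA), was 0.86 ± 0.11 (adjusted p = 6.08e-08).

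CLK2 (ENSG00000176444, chromosome 1, 155262868 to 155278491, minus strand) went the other way with Arg-tRNA_Cys(GCA). It had 60.6, 62.2 and 66.2 CPM with that mc-tRNA, against 101, 104 and 115 CPM with EGFP(R96C) alone. The groups did not overlap, and the fall of -0.76 ± 0.06 (0.59-fold, adjusted p = 1.34e-13) was the lowest change of any member in any comparison. With Ser-tRNA_Arg(CCG), CLK2 had 118, 117 and 118 CPM, against 100, 94.9 and 113 CPM with EGFP(R65) alone. This rise of 0.20 ± 0.06 (adjusted p = 0.00418) was not called without EGFP(R65) replicate 2 (adjusted p = 0.0706). In the other 3 comparisons CLK2 changed by -0.08 to 0.08 and did not pass the test.

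CLK3, the remaining kinase of the family, was not among the chosen genes and rose by 1.41 ± 0.07 with Arg-tRNA_Cys(GCA) (adjusted p = 8.57e-20), averaging 184 ± 3.6 CPM with that mc-tRNA and 69.1 ± 2.62 CPM with EGFP(R96C) alone (SD, n = 3 each). Of the 4 CLK genes, CLK2 alone thus fell with this mc-tRNA.

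**Figure D2:**
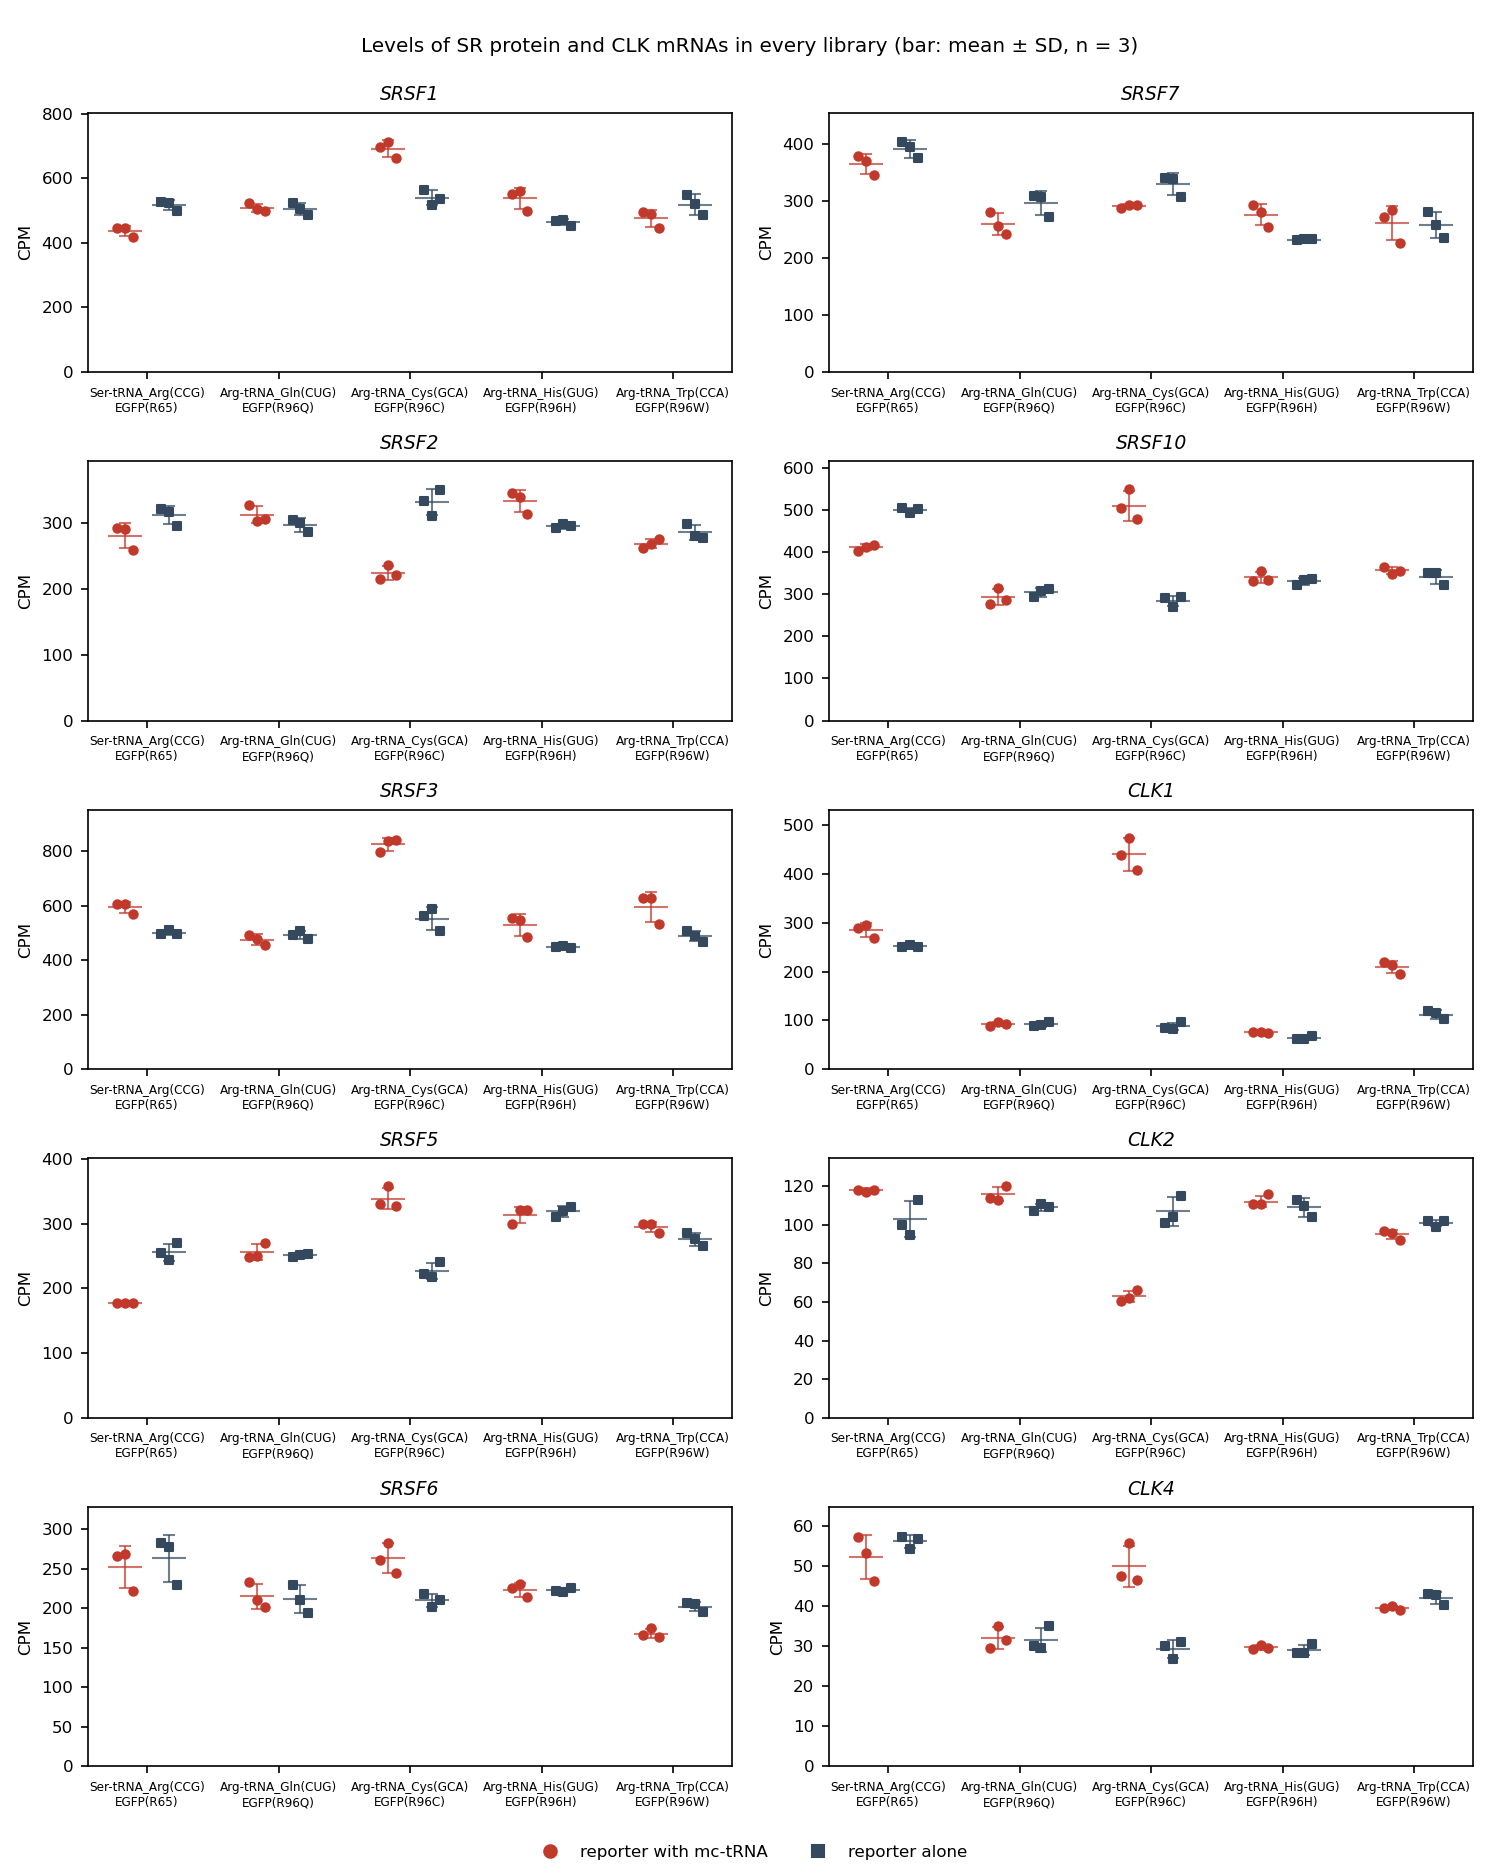
CPM (y axis) of each mRNA in all 30 libraries, with the libraries carrying the mc-tRNA (circles) left of those with the reporter alone (squares) for the 5 reporters on the x axis; bars are means ± SD of 3. CLK1 with Arg-tRNA_Cys(GCA), at 408 to 474 CPM, stands above every other library, and the 6 EGFP(R65) libraries are higher in CLK1 and SRSF10 than the other libraries with a reporter alone.

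With Arg-tRNA_Cys(GCA), CLK1, CLK4, SRSF10, SRSF5, SRSF3, SRSF1 and SRSF6 rose, of which only CLK1, CLK4 and SRSF10 also rose with library totals. The sequences around the start sites of CLK1, CLK4 and SRSF3 are shown as 3 examples of these 7. Each is the RefSeq window of 250 bases before to 50 after the annotated start (GRCh38.p14), at chr2:200864609-200864908 (minus strand) for CLK1, chr5:178627001-178627300 (minus strand) for CLK4 and chr6:36594112-36594411 (plus strand) for SRSF3, written 5′ to 3′ along the gene. Capitals mark matches to the cAMP response element core (TGACGT, both strands) and the TATA box (TATAAA, both strands).
CLK1: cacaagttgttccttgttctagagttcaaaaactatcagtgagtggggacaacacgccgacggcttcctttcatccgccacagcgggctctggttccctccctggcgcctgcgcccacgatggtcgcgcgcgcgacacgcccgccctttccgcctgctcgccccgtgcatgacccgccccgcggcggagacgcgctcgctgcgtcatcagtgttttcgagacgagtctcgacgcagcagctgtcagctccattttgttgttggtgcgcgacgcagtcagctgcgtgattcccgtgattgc
CLK4: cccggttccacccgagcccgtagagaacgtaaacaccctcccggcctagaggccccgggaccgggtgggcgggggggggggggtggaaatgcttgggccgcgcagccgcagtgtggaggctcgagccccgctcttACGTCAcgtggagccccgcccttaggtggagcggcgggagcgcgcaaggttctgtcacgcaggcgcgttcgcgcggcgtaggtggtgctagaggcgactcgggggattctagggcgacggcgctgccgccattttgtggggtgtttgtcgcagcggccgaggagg
SRSF3: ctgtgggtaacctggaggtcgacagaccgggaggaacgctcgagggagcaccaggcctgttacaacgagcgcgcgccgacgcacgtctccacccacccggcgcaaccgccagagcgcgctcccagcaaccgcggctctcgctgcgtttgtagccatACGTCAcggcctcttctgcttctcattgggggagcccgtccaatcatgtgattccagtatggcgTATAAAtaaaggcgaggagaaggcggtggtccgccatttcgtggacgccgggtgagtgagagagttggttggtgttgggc
The table of windows held 9 of the 10 members, in 11 windows. The core was in the windows of SRSF1, SRSF3, SRSF5 and CLK4 and in 7.98% of all 35116 windows, at -115 from the start in CLK4 and at -94 in SRSF3. The TATA box letters were in the windows of SRSF3, at -30, and of SRSF7, and in 11.5% of all windows. The heat shock element cores GAANNTTC and TTCNNGAA, searched on both strands, were in 6.77% and 7.74% of all windows and in those of 0 members. A match is a string of letters and not a measured site, and no binding was measured here.

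Among the SR mRNAs, SRSF3, an mRNA export adaptor and the smallest SR protein, rose in 4 of the 5 comparisons. SRSF3 (ENSG00000112081, chromosome 6, 36594353 to 36605600, plus strand) had 797, 835 and 841 CPM with Arg-tRNA_Cys(GCA), against 562, 589 and 506 CPM with EGFP(R96C) alone. It had 626, 626 and 532 CPM with Arg-tRNA_Trp(CCA), against 507, 489 and 468 CPM with EGFP(R96W) alone. With Ser-tRNA_Arg(CCG) the values were 605, 605 and 570 CPM, against 497, 509 and 494 CPM with EGFP(R65) alone. In these 3 comparisons every library with the mc-tRNA was above every library without it. The changes were 0.58 ± 0.06 (adjusted p = 4.76e-10), 0.28 ± 0.06 (adjusted p = 0.000344) and 0.25 ± 0.06 (adjusted p = 0.001). The fourth rise, with Arg-tRNA_His(GUG), was 0.24 ± 0.06 (adjusted p = 0.0313), from 556, 547 and 485 CPM with the mc-tRNA, against 449, 452 and 444 CPM with EGFP(R96H) alone. Of these calls, that with Arg-tRNA_Cys(GCA) was lost with library totals (0.03, adjusted p = 0.593), and that with Arg-tRNA_His(GUG) without any 1 of the EGFP(R96H) replicates (0.0743, 0.0973 and 0.16), without mc-tRNA replicate 1 (0.281) or 2 (0.161), or without the EGFP(R65) libraries (0.0569).

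SRSF10, SRSF5 and SRSF1 rose with Arg-tRNA_Cys(GCA) and fell with Ser-tRNA_Arg(CCG), although with library totals the first change was not called for SRSF5 (0.03) and was -0.19 for SRSF1. SRSF10 (ENSG00000188529, chromosome 1, 23964804 to 23980927, minus strand) had 503, 549 and 477 CPM with Arg-tRNA_Cys(GCA), against 291, 270 and 292 CPM with EGFP(R96C) alone. Its libraries with Ser-tRNA_Arg(CCG) had 403, 412 and 417 CPM, against 503, 492 and 501 CPM with EGFP(R65) alone. The groups did not overlap in either comparison, with changes of 0.84 ± 0.06 (1.79-fold, adjusted p = 2.77e-15) and -0.28 ± 0.06 (adjusted p = 6.67e-05). The difference of these effects, Ser-tRNA_Arg(CCG) minus Arg-tRNA_Cys(GCA), was -1.12 ± 0.08 (adjusted p = 2.57e-14).

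SRSF5 (ENSG00000100650, chromosome 14, 69726900 to 69772005, plus strand), a regulator of alternative exons, had 330, 358 and 328 CPM with Arg-tRNA_Cys(GCA), against 223, 218 and 241 CPM with EGFP(R96C) alone. With Ser-tRNA_Arg(CCG) it had 178, 178 and 177 CPM, against 255, 244 and 270 CPM with EGFP(R65) alone. The replicates with Ser-tRNA_Arg(CCG) lay close together and below every other library. SRSF5 rose by 0.58 ± 0.05 with Arg-tRNA_Cys(GCA) (adjusted p = 1.47e-11) and fell by 0.53 ± 0.05 on the log2 scale with Ser-tRNA_Arg(CCG) (adjusted p = 2.04e-10), the lowest change of any member with that mc-tRNA. Its effects differed by -1.11 ± 0.08, Ser-tRNA_Arg(CCG) minus Arg-tRNA_Cys(GCA) (adjusted p = 1.05e-14).

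SRSF1 (ENSG00000136450, chromosome 17, 58003360 to 58007346, minus strand), the founding SR protein, was the most abundant member per kilobase in all 10 groups. It had 697, 714 and 664 CPM with Arg-tRNA_Cys(GCA), against 565, 519 and 536 CPM with EGFP(R96C) alone, and 446, 445 and 418 CPM with Ser-tRNA_Arg(CCG), against 526, 525 and 500 CPM with EGFP(R65) alone. Neither pair overlapped, and the changes were 0.36 ± 0.06 (adjusted p = 1.47e-06) and -0.24 ± 0.06 (adjusted p = 0.000448). With Arg-tRNA_His(GUG) it rose by 0.21 ± 0.06 (adjusted p = 0.0378). That rise was not called without a filter on low counts (adjusted p = 0.0994), nor in the further settings given below for this mc-tRNA. With Arg-tRNA_Trp(CCA) its change of -0.12 ± 0.06 did not pass the test (adjusted p = 0.09), and it was called without EGFP(R96W) replicate 3 (adjusted p = 0.0307). Of the exon bases of SRSF1, 56.6% are shared with ENSG00000266086 on the same strand, which held 203 counts over the 30 libraries beside 712189 of SRSF1.

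SRSF2 and SRSF7 fell with Arg-tRNA_Cys(GCA). SRSF2 (ENSG00000161547, chromosome 17, 76734115 to 76737374, minus strand), a speckle protein also known as SC35, had 215, 235 and 221 CPM with that mc-tRNA, against 333, 310 and 349 CPM with EGFP(R96C) alone. The groups stood apart, with a fall of -0.56 ± 0.06 (0.677-fold, adjusted p = 1.78e-10). With Ser-tRNA_Arg(CCG) it had 292, 290 and 258 CPM, against 321, 316 and 295 CPM with EGFP(R65) alone, a fall of -0.15 ± 0.06 (adjusted p = 0.0279). That small fall was not called with DESeq2 (adjusted p = 0.0858), with RLE factors (0.0886), without a filter on low counts (0.0826), without EGFP(R65) replicate 1 (0.0983) or 2 (0.0679), or without mc-tRNA replicate 3 (0.191). MFSD11 overlaps 36.7% of the exon bases of SRSF2 on the opposite strand and held 30894 counts over the 30 libraries beside 410232 of SRSF2. The strand setting of the counting is not given in the sources used here, so reads of this overlap cannot be told apart.

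SRSF7 (ENSG00000115875, chromosome 2, 38743599 to 38751494, minus strand), an export adaptor with a zinc knuckle, had 288, 293 and 293 CPM with Arg-tRNA_Cys(GCA), against 341, 338 and 306 CPM with EGFP(R96C) alone. The groups were apart by a narrow margin, and the fall of -0.17 ± 0.07 (adjusted p = 0.0377) was not called without EGFP(R96C) replicate 1 (adjusted p = 0.119). With Arg-tRNA_His(GUG) it had 292, 281 and 255 CPM, against 231, 233 and 233 CPM with EGFP(R96H) alone. Those groups did not overlap either, and the change of 0.25 ± 0.07 did not pass the test (adjusted p = 0.0582); it did with DESeq2 (0.0305), without a filter on low counts (0.0331), with only the groups compared in the fit (0.00278) and without mc-tRNA replicate 3 (0.0294). SRSF7 had the lowest change of the members with Arg-tRNA_Gln(CUG), at -0.19 ± 0.07 (edgeR adjusted p = 0.318).

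SRSF6 (ENSG00000124193, chromosome 20, 43457928 to 43464247, plus strand), another activator of exon inclusion, had 261, 282 and 245 CPM with Arg-tRNA_Cys(GCA), against 218, 201 and 210 CPM with EGFP(R96C) alone. With Arg-tRNA_Trp(CCA) it had 166, 175 and 164 CPM, against 206, 205 and 195 CPM with EGFP(R96W) alone. The groups did not overlap in either comparison and the order was opposite, with a rise of 0.32 ± 0.07 (adjusted p = 0.000309; -0.22 with library totals) and a fall of -0.26 ± 0.07 (adjusted p = 0.00513). The difference of these effects, Arg-tRNA_Cys(GCA) minus Arg-tRNA_Trp(CCA), was 0.58 ± 0.11 (adjusted p = 2.17e-05), and with library totals 0.16 and not called (adjusted p = 0.2). Its change with Ser-tRNA_Arg(CCG) was -0.06 ± 0.07 (adjusted p = 0.519).

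The scaling moved these values most for Arg-tRNA_Cys(GCA), with which heat shock transcripts such as DNAJB1 (log2 change 7.27 ± 0.10) were high. Scaling by library totals in place of TMM factors moved the median change of all genes to -0.54. On that scale SRSF1 was at -0.19 and SRSF6 at -0.22, both called lower, SRSF3 and SRSF5 were at 0.03 and not called, and CLK1 (1.78), SRSF10 (0.29) and CLK4 (0.22) still rose. Relative to the median gene, SRSF1 was at 0.35, SRSF3 and SRSF5 at 0.57 and SRSF6 at 0.32. Among all calls the share of higher genes was 20.2% with library totals and 49.8% with TMM factors. For Arg-tRNA_Trp(CCA) the median gene moved to -0.16 and that share was 31.4% against 48.8%. With library totals SRSF3 still rose there, while SRSF1, SRSF2, CLK2 and CLK4 joined SRSF6 among the falls. For Arg-tRNA_His(GUG) the share was 48.4% against 62.1%, and for Arg-tRNA_Gln(CUG) 38.3% against 49.6%.

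Arg-tRNA_Gln(CUG) and Arg-tRNA_His(GUG) left the 10 mRNAs near their reporters alone. With Arg-tRNA_Gln(CUG), the log2 changes ran from -0.19 for SRSF7 to 0.08 for CLK2, and both edgeR and DESeq2 called 0 of 10. CLK2 was the 1 member whose groups did not overlap, where 16.2% of all genes had groups apart. With Arg-tRNA_His(GUG) the changes ran from -0.02 for SRSF5 to 0.25 for SRSF7 and CLK1, and 5 members were higher in all 3 libraries with the mc-tRNA, where the groups of 27% of all genes were apart. The 3 rises, of SRSF1, SRSF3 and CLK1, had adjusted p-values of 0.0313 to 0.0392. None of the 3 was called without EGFP(R96H) replicate 1, 2 or 3, without mc-tRNA replicate 1 or 2, or without the EGFP(R65) libraries in the fit, and DESeq2 called these 3 with SRSF2 and SRSF7.

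The 5 effects differed within each gene. Each mc-tRNA was tested only with its own reporter, so such a difference cannot be told apart from one between reporters. For Ser-tRNA_Arg(CCG) it also cannot be told apart from whatever else set the EGFP(R65) libraries aside. An F-test of whether the 5 mc-tRNA effects are equal was called for all 10 members, where 72.5% of all genes were, from an adjusted p of 3.95e-21 for CLK1 to 0.00138 for SRSF7. The effects of Ser-tRNA_Arg(CCG) and Arg-tRNA_Cys(GCA) differed for 9 members (56.5% of all genes, 25.3% higher and 31.3% lower), those of Arg-tRNA_Cys(GCA) and Arg-tRNA_Trp(CCA) for 9 (43.7%) and those of Ser-tRNA_Arg(CCG) and Arg-tRNA_Trp(CCA) for 4 (45.3%). With library totals, the Arg-tRNA_Cys(GCA) minus Arg-tRNA_Trp(CCA) difference was no longer called for SRSF1 (0.06, adjusted p = 0.537), SRSF3 (-0.12, 0.193), SRSF5 (0.06, 0.511) and SRSF6 (0.16, 0.2). The Ser-tRNA_Arg(CCG) minus Arg-tRNA_Cys(GCA) difference was lost for SRSF1 (-0.09, adjusted p = 0.307) and SRSF6 (0.13, 0.303) and turned for SRSF3 (0.18, 0.0461). SRSF3 was also lost in the Arg-tRNA_Cys(GCA) minus Arg-tRNA_Trp(CCA) pair without a filter on low counts (adjusted p = 0.114) and with only the groups compared (0.103), and SRSF6 in the Ser-tRNA_Arg(CCG) minus Arg-tRNA_Cys(GCA) pair with only the groups compared (0.0791). SRSF7 had no called difference in either pair with Arg-tRNA_Cys(GCA), with 95% intervals of -0.14 to 0.28 for Ser-tRNA_Arg(CCG) minus Arg-tRNA_Cys(GCA) and -0.40 to 0.02 for Arg-tRNA_Cys(GCA) minus Arg-tRNA_Trp(CCA). Both were called with library totals (0.58, adjusted p = 2.71e-06, and -0.60, 1.92e-06), the first also with only the groups compared (0.0393), and the second also without a filter on low counts (0.0141) and without Arg-tRNA_Trp(CCA) replicate 3 (0.0152). SRSF6 gained a call in the Ser-tRNA_Arg(CCG) minus Arg-tRNA_Trp(CCA) pair with library totals (0.29, adjusted p = 0.0244) and without Ser-tRNA_Arg(CCG) replicate 3 (0.28, 0.0281). CLK1 was 1.43 ± 0.09 higher on the log2 scale in the effect of Arg-tRNA_Cys(GCA) than in that of Arg-tRNA_Trp(CCA) (adjusted p = 1.04e-14). The difference of its effects, Ser-tRNA_Arg(CCG) minus Arg-tRNA_Trp(CCA), was -0.72 ± 0.09 (adjusted p = 9.39e-08).

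The reporters alone also differed in these mRNAs. Among the 4 EGFP(R96) reporters without mc-tRNA, an F-test was called for 8 of the 10 members, where 54.7% of all genes were called; the exceptions were CLK2 (adjusted p = 0.25; called with library totals, 0.0329) and SRSF6 (0.359). CLK1 averaged 63.6 ± 4.04 CPM with EGFP(R96H), 87.7 ± 7.16 with EGFP(R96C), 92.2 ± 5.04 with EGFP(R96Q) and 112 ± 8.3 with EGFP(R96W) (SD, n = 3 each). The libraries of EGFP(R96C) and EGFP(R96Q) overlapped and the neighbours on either side did not, so the reporters alone spanned 1.77-fold. CLK4 was at 29 ± 1.28, 29.2 ± 2.25 and 31.5 ± 2.96 CPM with EGFP(R96H), EGFP(R96C) and EGFP(R96Q), which overlapped, and at 42 ± 1.52 CPM with EGFP(R96W), which lay above them. SRSF5 ran in an order of its own, at 227 ± 11.8 CPM with EGFP(R96C), 251 ± 3.13 with EGFP(R96Q), 276 ± 9.65 with EGFP(R96W) and 319 ± 8.01 with EGFP(R96H), and no neighbouring ranges overlapped. SRSF7 spanned 1.41-fold between EGFP(R96H) and EGFP(R96C), and the other members 1.08-fold to 1.23-fold. The calls of SRSF1 and SRSF2 were lost without EGFP(R96H) replicate 3 (adjusted p = 0.0639) and without EGFP(R96C) replicate 3 (0.109), in that order. With EGFP(R65) alone CLK1 was at 252 ± 2.07 CPM, 2.24 times the highest of the 4, and SRSF10 at 499 ± 5.62 CPM, 1.47 times; the EGFP(R65) libraries stood apart as a whole, so the reporter cannot be told apart there from whatever else set those libraries aside.

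**Figure D3:**
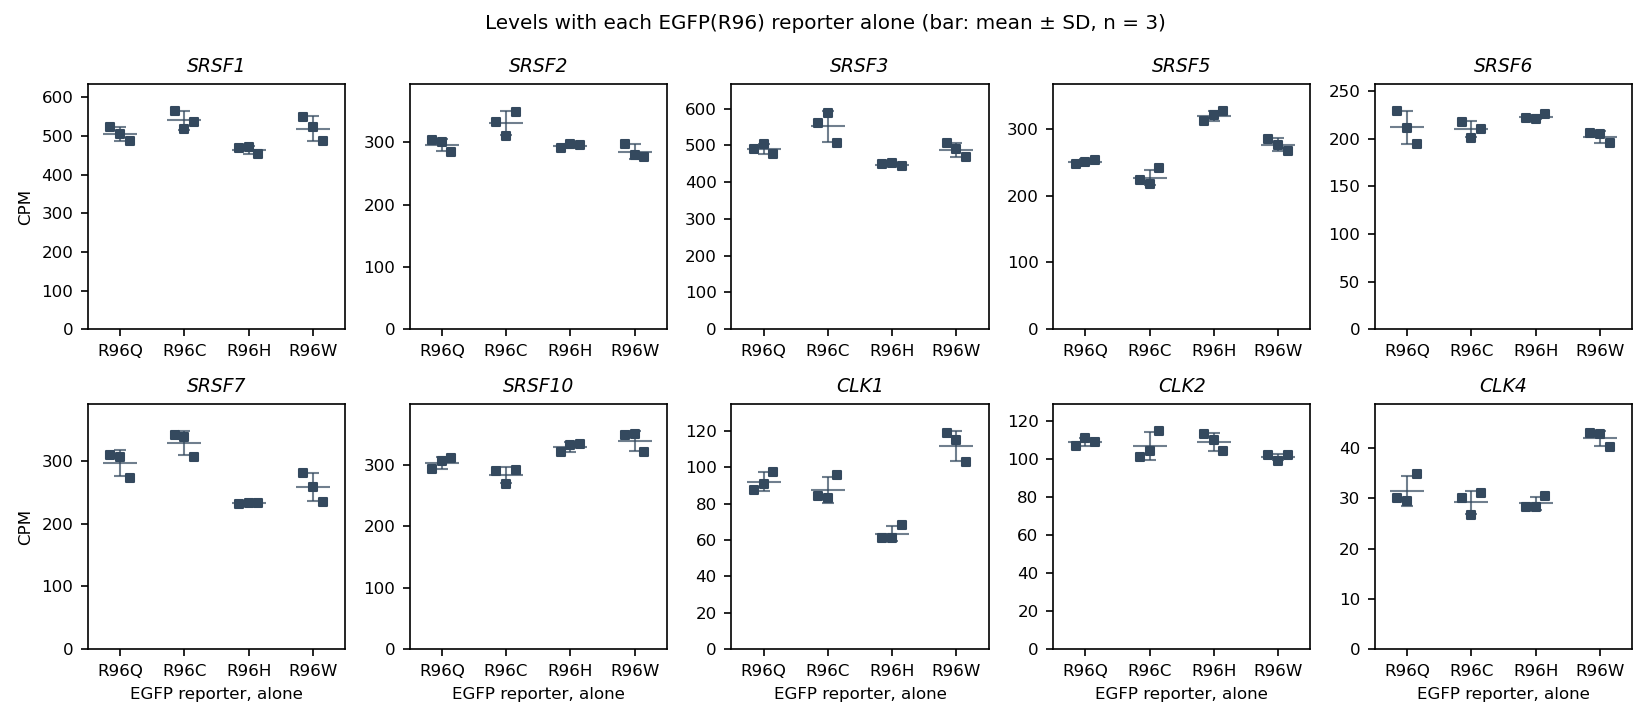
CPM (y axis) of each mRNA in the 12 libraries with an EGFP(R96) reporter alone (x axis), with means ± SD of 3. CLK1 is lowest with EGFP(R96H), at 61.2 to 68.3 CPM, and highest with EGFP(R96W), at 103 to 119 CPM, while CLK2 spans 1.08-fold and SRSF6 1.11-fold between reporter means.

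Compared per length, as CPM per kilobase of annotated exons, SRSF1 was the most abundant and CLK4 the least abundant member in all 10 groups. SRSF1 was highest with Arg-tRNA_Cys(GCA), at 207 ± 7.68, against 162 ± 7.07 with EGFP(R96C) alone (SD, n = 3 each). CLK4 ranged from 3.66 ± 0.162 with EGFP(R96H) alone to 7.08 ± 0.206 with EGFP(R65) alone. CLK1 ranked 3 of the 10 with Arg-tRNA_Cys(GCA), at 85.1 ± 6.44 CPM per kilobase, and 9 with EGFP(R96C) alone, at 17 ± 1.39. With Arg-tRNA_Trp(CCA) it ranked 6, at 40.5 ± 2.46, and with EGFP(R96W) alone 9, at 21.7 ± 1.61.

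The rest of the splicing machinery was followed through 5 lists with 104 tested genes in all. Of these, 68 rose and 15 fell with Arg-tRNA_Cys(GCA), where 30.2% of all genes rose and 30.5% fell. With library totals 26 rose and 50 fell, where 3143 of all 22321 tested genes rose and 12401 fell. With Arg-tRNA_Trp(CCA), 57 rose and 10 fell (39 and 19 with library totals), beside 20.7% and 21.7% of all genes. With Ser-tRNA_Arg(CCG), 39 rose and 36 fell (37 and 39 with library totals), beside 26.6% and 30.7%. With Arg-tRNA_His(GUG), 6 rose and 0 fell on either scale, beside 1.56% and 0.95%. These shares of all genes are the background for each list that follows. With Arg-tRNA_Gln(CUG) edgeR called 0 of 104, with 4 at an unadjusted p under 0.05, and DESeq2 called 1 rise. The DESeq2 count of falls with Arg-tRNA_His(GUG) was also 0, while 31 of the 104 genes had an unadjusted p under 0.05. The shares of all genes above are at the adjusted p and are no background for that count.

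SR-related proteins, which carry arginine and serine repeats outside the SR family, rose in 24 of 32 cases and fell in 3 with Arg-tRNA_Cys(GCA), beside 30.2% and 30.5% of all genes (median log2 change 0.51), while with library totals 10 rose and 13 fell. RSRC2 was highest, at 2.04 ± 0.07, and the speckle scaffold SRRM2 lowest, at -0.57 ± 0.08. With Arg-tRNA_Trp(CCA), 16 rose and 5 fell (median 0.15; 11 and 7 with library totals), from U2SURP at -0.50 ± 0.10 to the U2 auxiliary factor gene U2AF1 at 1.21 ± 0.12, whose near-identical copy makes its count uncertain. With Ser-tRNA_Arg(CCG), 9 rose and 11 fell (median -0.01), from ZRANB2 at -1.17 ± 0.08 to SCAF4 at 0.61 ± 0.05. RSRC2 was also the highest of 3 rises with Arg-tRNA_His(GUG), at 0.39 ± 0.07.

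Among 13 further kinases of SR proteins and DYRK-family relatives, 8 rose and 2 fell with Arg-tRNA_Cys(GCA), beside 30.2% and 30.5% of all genes (median 0.49; 4 and 4 with library totals), with CLK3 highest and HIPK2 lowest, at -0.50 ± 0.08. Arg-tRNA_Trp(CCA) raised 8 and lowered 0, also with DESeq2, 8 having an unadjusted p under 0.05 (median 0.22; 5 and 0 with library totals), and the highest, SRPK3 at 1.48 ± 0.45, was at 0.464 ± 0.294 CPM with the mc-tRNA and 0.164 ± 0.0866 CPM with EGFP(R96W) alone. With Ser-tRNA_Arg(CCG), 7 rose and 5 fell (median 0.25). The cytoplasmic SR protein kinase SRPK1 was lowest there, at -0.73 ± 0.05 (adjusted p = 2.05e-14). DYRK4 rose most there, by 1.38 ± 0.07.

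Of the 5 other SR protein genes, 3 rose and 1 fell with Arg-tRNA_Cys(GCA), beside 30.2% and 30.5% of all genes (1 and 3 with library totals), led by SRSF11 at 0.92 ± 0.08 with SRSF8 lowest at -0.21 ± 0.07. Arg-tRNA_Trp(CCA) raised 2, with SRSF4 at 0.54 ± 0.05, and lowered SRSF8, at -0.40 ± 0.07 (1 and 2 with library totals). With Ser-tRNA_Arg(CCG), 3 fell and edgeR and DESeq2 called 0 rises, while RLE factors gave 1 and 3 genes had an unadjusted p under 0.05. SRSF12 was lowest, at -1.70 ± 0.10, averaging 7.69 ± 0.65 CPM with Ser-tRNA_Arg(CCG) and 25 ± 2.34 CPM with EGFP(R65) alone (SD, n = 3 each). SRSF4 was the 1 rise with Arg-tRNA_His(GUG), at 0.27 ± 0.05.

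The hnRNP and PTB proteins, which often oppose SR proteins at splice sites, rose in 18 of 26 cases and fell in 2 with Arg-tRNA_Cys(GCA), beside 30.2% and 30.5% of all genes (median 0.49; 7 and 12 with library totals). PCBP1 was highest, at 1.17 ± 0.06, and HNRNPA1 lowest, at -0.28 ± 0.06. With Arg-tRNA_Trp(CCA), 12 rose and 4 fell (median 0.11; 6 and 9 with library totals), with PCBP1 highest again at 0.58 ± 0.06 and PTBP3 lowest at -0.35 ± 0.08. With Ser-tRNA_Arg(CCG), 8 rose and 10 fell (median 0.03), from HNRNPA3 at -1.23 ± 0.06 to HNRNPC at 0.51 ± 0.06. Arg-tRNA_His(GUG) raised 2, PCBP1 at 0.27 ± 0.06 being the higher.

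Of 28 proteins of the U1, U2 and tri-snRNP particles, the core of the spliceosome, 19 rose and 0 fell with Arg-tRNA_Trp(CCA), beside 20.7% and 21.7% of all genes (median 0.30; 16 and 1 with library totals), led by the U2 subunit SF3B2 at 0.79 ± 0.06. DESeq2 counted 19 and 0 as well, and 22 genes had an unadjusted p under 0.05. With Arg-tRNA_Cys(GCA), 15 rose and 7 fell (median 0.18; 4 and 18 with library totals), from EFTUD2 at -0.61 ± 0.06 to SNRPB2 at 1.37 ± 0.06. With Ser-tRNA_Arg(CCG), 15 rose and 7 fell (median 0.18), from the core Sm protein gene SNRPD1 at -0.58 ± 0.07 to SF3B2 at 0.67 ± 0.06.

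**Figure D4:**
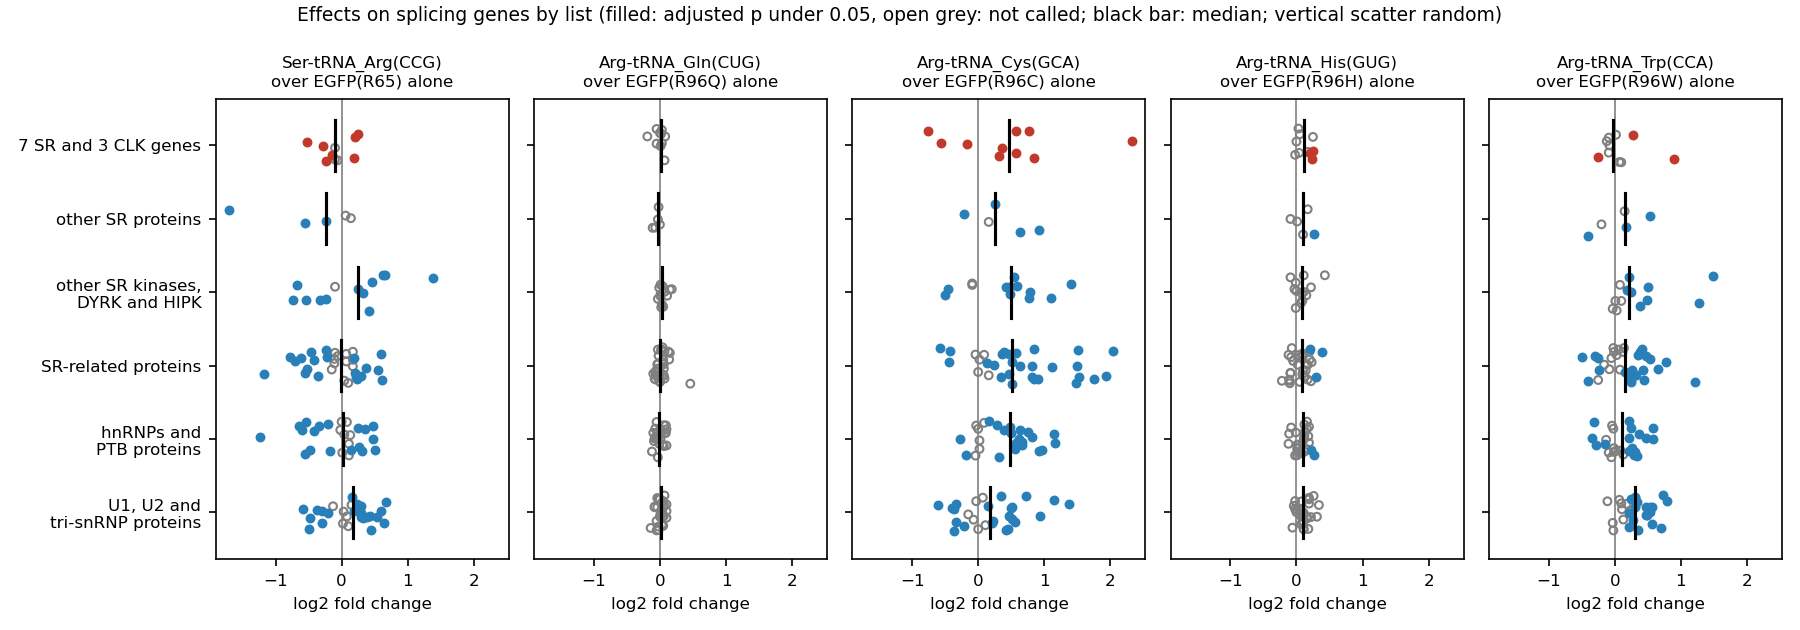
Log2 fold change (x axis) of every gene of the 10 members and of the 5 splicing lists (rows) in the 5 comparisons (panels); filled points have an adjusted p under 0.05 and the black bar is the list's median. With Arg-tRNA_Cys(GCA) the medians lie between 0.18 and 0.51 with the TMM factors plotted (with library totals falls outnumber rises for SR-related, other SR, hnRNP and snRNP genes and the members), and with Arg-tRNA_Gln(CUG) no point is filled. Over all genes with Arg-tRNA_Cys(GCA), library totals gave 3143 rises and 12401 falls.

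The changes of 8 heat shock genes are given beside those of the members. All 8 of the list rose with Arg-tRNA_Cys(GCA) (median log2 change 5.68) and with Arg-tRNA_Trp(CCA) (2.18), 7 rose with Arg-tRNA_His(GUG) (0.42), 3 with Arg-tRNA_Gln(CUG) (0.34), and 2 rose and 3 fell with Ser-tRNA_Arg(CCG) (-0.13). DNAJB1 changed by 7.27 ± 0.10, 2.20 ± 0.08, 0.36 ± 0.08, 0.32 ± 0.08 and 0.52 ± 0.08 in those comparisons. HSPA1A changed by 7.02 ± 0.18, 3.23 ± 0.18, 1.09 ± 0.27, 0.47 ± 0.27 (not called, adjusted p = 0.598) and -1.48 ± 0.20, and its reads are shared with the near-identical HSPA1B. The median log2 change of the 10 members was 0.47, -0.03, 0.11, 0.02 and -0.10 in the same order. With Arg-tRNA_Cys(GCA) 3 members fell, beside 30.5% of all genes. With Arg-tRNA_Trp(CCA) 7 members were not called, where 42.5% of all genes were called. CLK1, the member whose level changed most, changed by 2.33, 0.90, 0.25, 0.00 and 0.18 in that order. The part of the heat shock genes in the changes of the SR and CLK mRNAs was not tested.

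The annotation gave these genes a shared feature that gene counts cannot resolve. In GENCODE release 29, 9 of the 10 members (90%) have a transcript marked for nonsense-mediated decay, all except CLK2, and 8 (80%) have a retained-intron transcript, all except CLK2 and SRSF6. Among 15127 tested protein-coding genes the shares were 40.7% and 54.3%. CLK1 has 8 retained-intron transcripts and 2 marked for decay, CLK4 has 7 and 3, and SRSF7 has 2 and 6. Counts per gene add productive and unproductive transcripts, so which transcripts changed was not analysed here. Processed copies of members held at most 532 counts over the 30 libraries (SRSF6P2, beside 306735 of SRSF6).

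Over the 10 group means of log2 CPM, the tested genes most like CLK1 were ADNP2 (Pearson's r = 0.989), RAE1 (0.987), TSC1 (0.986), RIT1 (0.986) and CCDC81 (0.986). ADNP2 averaged 316 CPM with Arg-tRNA_Cys(GCA) and 80.5 CPM with EGFP(R96C) alone. The gene most like each other member was CDC5L for SRSF10 (0.979), ERGIC2 for SRSF5 (0.984), LSM1 for SRSF3 (0.980), CDC37L1 for CLK4 (0.976), NPTX1 for CLK2 (0.985), PSME3 for SRSF2 (0.938), CPNE6 for SRSF7 (0.947), ZNF10 for SRSF6 (0.927) and ENSG00000260052 for SRSF1 (0.970). ENSG00000260052 was low, at 0.328 CPM with Arg-tRNA_Cys(GCA) and 0.156 CPM with EGFP(R96C) alone, as was CPNE6, at 0.927 and 1.99 CPM. All these genes were picked for the highest r over all tested genes, so a high r follows from the choice. Within the 10 genes, CLK1 was most like CLK4 (0.90) and SRSF10 (0.86), and CLK2 was most like SRSF2 (0.83) and ran against SRSF1 and SRSF3 (-0.82 each). These correlations describe 10 group means that share libraries and depth between genes, and the EGFP(R65) groups weigh on each of them.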

How the data were processed

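Per the labels' protocols, total RNA of sorted HEK293 cells was selected for polyA, and strand-specific libraries were sequenced on a NovaSeq6000. STAR, SAMtools and featureCounts with hg38 are named in the submitters' processing notes, and no version, annotation or strand setting is given in the sources used here. The authors deposited raw counts of uniquely mapped paired-end reads per gene, per the file headers, for 58278 genes and 92 ERCC sequences, which were left out. All 10 members match GENCODE release 29 by version, from which positions (GRCh38) come. Totals of 39017548 to 55446962 counts put the limit of a count of 0 at 0.0541 to 0.0769 CPM (3 counts, counting error only).

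Counts were fitted with edgeR 4.0.16 in R 4.3.3 (TMM factors, filterByExpr, robust quasi-likelihood, 10 group means over 30 libraries, 20 residual degrees of freedom, biological coefficient of variation 8.24%), with p-values adjusted over 22321 genes and a threshold of 0.05. On simulated data with known changes (20931 genes, Arg-tRNA_Cys(GCA) comparison) the fit recovered 97.9% of 4-fold and 85.4% of 2-fold changes. Among the members only CLK1 with Arg-tRNA_Cys(GCA), at 5.02-fold, changed by more than 2-fold, so these rates do not cover the smaller changes. Few genes were changed in the simulation, so it does not bear on the scaling. Replicates differed by more than counting error, with chi-square values of 2.08 to 36.7 per degree of freedom. The members, lists and tests were chosen with earlier results of these data known. All members are named; of each list, the called genes with the highest and lowest change, with DNAJB1 and HSPA1A fixed; and the genes most like each member by Pearson's r, 5 for CLK1 and 1 for each other. CLK3 is named as the highest of its list. Alternatives were DESeq2 1.42.0, RLE factors, library totals, no filter, only the groups compared, no EGFP(R65) libraries, a replicate block and leaving out each replicate.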

Additional observations from a re-analysis of the deposited data

Results flagged for a closer look

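The following values stood out because effects differ between the mc-tRNAs, each with its own reporter, by a test of the difference itself. The mc-tRNA and its reporter cannot be told apart in these differences. The edgeR F-test that the 5 effects are equal gave adjusted p-values of 3.95e-21 for CLK1, 2.21e-13 for SRSF10, 4.35e-13 for SRSF5, 9.82e-12 for CLK2, 9.33e-09 for SRSF2, 2.61e-08 for CLK4, 1.63e-07 for SRSF1, 5.66e-06 for SRSF3, 0.000269 for SRSF6 and 0.00138 for SRSF7.

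Of these, 4 mRNAs were called in opposite directions with Ser-tRNA_Arg(CCG) and with Arg-tRNA_Cys(GCA). The difference of the effects, Ser-tRNA_Arg(CCG) minus Arg-tRNA_Cys(GCA), was -0.60 for SRSF1, -1.11 for SRSF5, -1.12 for SRSF10 and 0.96 for CLK2. With library totals SRSF1 was called lower with both (-0.28 and -0.19) and its difference was -0.09 and not called (adjusted p = 0.307), and SRSF5 was not called with Arg-tRNA_Cys(GCA) (0.03). SRSF6 was called in opposite directions with Arg-tRNA_Cys(GCA) and Arg-tRNA_Trp(CCA), with a difference of 0.58, Arg-tRNA_Cys(GCA) minus Arg-tRNA_Trp(CCA). With library totals SRSF6 was called lower with both (-0.22 and -0.39), and the difference was 0.16 and not called (adjusted p = 0.2).

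The ERCC spike-in counts, which entered no test, reached 106 in an EGFP(R96) library, above the 0 of all 6 EGFP(R65) libraries. Each group held 3 libraries, and no test of single libraries was run. Replicate 3 of EGFP(R96C) alone differed from replicates 1 and 2 with chi-square values of 27.7 and 36.7 per degree of freedom, against 16 between replicates 1 and 2.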

How the results depend on the processing

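Scaling mattered most. With library totals, 3 members rose and 5 fell with Arg-tRNA_Cys(GCA), in place of 7 and 3, and 5 fell with Arg-tRNA_Trp(CCA), in place of 1. Over all genes on that scale, 3143 rose and 12401 fell with Arg-tRNA_Cys(GCA), and 3197 rose and 6976 fell with Arg-tRNA_Trp(CCA). The changes then turned for SRSF1 (-0.19) and SRSF6 (-0.22) with Arg-tRNA_Cys(GCA), for SRSF5 (-0.03), SRSF7 (-0.12) and SRSF10 (-0.06) with Arg-tRNA_Trp(CCA) and for SRSF1 (-0.01) with Arg-tRNA_Gln(CUG). Differences of effects turned for SRSF3 (0.18) and SRSF6 (0.13), Ser-tRNA_Arg(CCG) minus Arg-tRNA_Cys(GCA), for SRSF2 (0.03), SRSF3 (0.06) and CLK4 (0.08), Ser-tRNA_Arg(CCG) minus Arg-tRNA_Trp(CCA), and for SRSF3 (-0.12), Arg-tRNA_Cys(GCA) minus Arg-tRNA_Trp(CCA). The CLK4 difference also turned with DESeq2, RLE factors and only the groups compared (0.01 each); it was not called in any setting. With library totals all genes shift together by the median given in the report; otherwise the cause was not tested.

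With Arg-tRNA_His(GUG), 5 members rose with DESeq2 and with only the groups compared, 0 without the EGFP(R65) libraries, and 0 to 4 when 1 replicate was left out. The shares of all genes called in these settings are not given here. Of the 104 genes of the 5 splicing lists, 15 rose with DESeq2 and 6 in the main fit. The members that fell with Arg-tRNA_Trp(CCA) numbered 1 to 2 when 1 replicate was left out.

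Leaving out 1 replicate also turned uncalled changes near 0. With Arg-tRNA_Gln(CUG) these were SRSF1 (range -0.02 to 0.04), SRSF5 (-0.01 to 0.05), SRSF6 (-0.04 to 0.09) and CLK4 (-0.04 to 0.11). The others were SRSF6 with Ser-tRNA_Arg(CCG) (-0.16 to 0.02), SRSF5 with Arg-tRNA_His(GUG) (-0.04 to 0.01), SRSF7 with Arg-tRNA_Trp(CCA) (-0.05 to 0.11) and the CLK4 difference, Ser-tRNA_Arg(CCG) minus Arg-tRNA_Trp(CCA) (-0.09 to 0.06).

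Same-numbered replicates correlated at -0.0772 to 0.14 in their deviations, and most of these values lay below 0.1. The same-numbered library was the best match for every replicate with Arg-tRNA_Trp(CCA) and for none with Arg-tRNA_Cys(GCA). In the other comparisons it was so for replicates 1 and 3 and not 2. Whether the numbers pair the libraries is thus not settled, and the main fit did not pair them. A replicate block moved the falls with Arg-tRNA_Trp(CCA) to 2, by SRSF1 (adjusted p = 0.0254), called SRSF7 with Arg-tRNA_His(GUG) (0.00466), and called 2 further differences, for SRSF6 (0.0488) and SRSF7 (0.0409). The members' standard errors of 0.05 to 0.08 on the log2 scale come with replicates that differed by more than counting error. Depth limits genes with few counts, such as SRPK3 among the kinases.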
